A study of Homo sapiens with 4 samples.

Results

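Transcripts of 45 plasma proteins, made mainly by liver cells and released into blood, were followed in HepG2 cells after inhibition of miR-191. The proteins comprise carriers, clotting factors, protease inhibitors, complement components and acute phase proteins. The genes are a list of named plasma proteins, and each was represented by its brightest array row carrying that single gene symbol. Of the 45 genes, 44 had such a row, the exception being GC, the vitamin D binding protein, and 40 lay above the limit on dim rows (3.41 on the log2 scale) and were tested among 14147 genes in all. HepG2 is an established line grown from a hepatocellular carcinoma. One group received anti-miR-191, an antisense inhibitor of the microRNA, and the other a negative control anti-miR (anti-miR-NC). Both groups were transfected with Oligofectamine, a lipid reagent, and no group of untransfected cells was analysed here. The dose and the time after transfection are not given in the labels. Each treatment was carried out in 2 separate experiments, giving 4 arrays with 1 anti-miR-191 and 1 control array per experiment. Nothing in the labels describes further cultures within an experiment, so the p-values and standard errors (SE) rest on these 4 arrays alone. The test used, limma, takes each gene's spread largely from the spread of all genes tested. A printed SE is therefore not the spread of that gene alone.

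Hepatocytes secrete most of the protein in plasma. Albumin and the other carriers bind hormones, lipids, metals and vitamins. Most clotting factors are zymogens that activate each other in sequence until thrombin cleaves fibrinogen. Serpins and alpha-2-macroglobulin hold the resulting proteases in check. Inflammation reshapes this output: interleukin-6 acting through STAT3 and C/EBP factors raises the positive acute phase proteins, while albumin, transthyretin and other negative acute phase proteins fall. Liver-enriched factors such as HNF1, HNF4 and FOXA drive many of these promoters.

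The labels name miR-191 without its arm. The mature 5p arm, the form usually meant by that name, is shown here because it is the presumed object of the inhibitor. Its sequence, from RefSeq on GRCh38.p14 at chr3:49020672-49020694 on the minus strand, has the seed (bases 2 to 8) in capitals.
hsa-miR-191-5p: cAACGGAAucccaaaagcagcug
Sites for this seed in the transcripts of the plasma proteins were not analysed here.

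Promoter windows (RefSeq, GRCh38.p14, from 250 bases before to 50 bases after each transcript start) were present for 34 of the 45 genes and were searched on both strands for 6 short motifs. The letters GTTAAT, the core of the HNF1 site, occurred in a window of 9 of 34 members (26.5%), against 8.27% of 27305 genes with a window. The palindromic STAT motif TTCNNNGAA occurred in 11 of 34 (32.4%), against 9.38% of all genes. The HNF4 letters CAAAGTCC were found in 2 members, AHSG and F10 (5.88% against 1.47%), and the FOXA letters TGTTTAC in KNG1 and PROS1 (5.88% against 4.19%). The C/EBP letters TTGCGNAA were found in 0 of 34 members against 1.08% of genes, and TATAAA in 5 (14.7% against 14%). No matches of different motifs overlapped in the members' windows. A gene with several start sites had several windows, some of them overlapping, and over all 35116 windows the share was 6.88% for HNF1 and 7.66% for STAT. A match describes letters, not a bound site.

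The stretches below are shown because they carry the HNF1 letters close to the start of genes described in the results, with the match in capitals. They cover positions -100 to -1 from the start site, at chr4:73404187-73404286 (plus strand) for ALB, chr4:154590743-154590842 (minus) for FGA, chr4:154562880-154562979 (plus) for FGB, chr11:46719113-46719212 (plus) for F2 and chr14:94388603-94388702 (minus) for SERPINA1.
ALB: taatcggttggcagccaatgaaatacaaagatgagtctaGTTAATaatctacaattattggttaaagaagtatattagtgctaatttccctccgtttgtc
FGA: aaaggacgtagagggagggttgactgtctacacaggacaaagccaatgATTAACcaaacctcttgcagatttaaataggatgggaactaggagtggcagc
FGB: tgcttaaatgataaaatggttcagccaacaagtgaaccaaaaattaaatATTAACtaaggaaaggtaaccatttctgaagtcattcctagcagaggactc
F2: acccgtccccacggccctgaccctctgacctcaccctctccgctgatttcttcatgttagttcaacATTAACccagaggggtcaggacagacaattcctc
SERPINA1: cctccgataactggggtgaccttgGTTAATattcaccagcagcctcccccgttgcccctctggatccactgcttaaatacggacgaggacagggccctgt

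The next stretches carry the STAT motif in AGT (chr1:230714223-230714322, minus strand), RBP4 (chr10:93601895-93601994, minus), PROS1 (chr3:93973947-93974046, minus) and CFB (chr6:31945945-31946044, plus). The last carries the HNF4 letters of F10 on the minus strand, directly at the start site (chr13:113122719-113122808, plus).
AGT: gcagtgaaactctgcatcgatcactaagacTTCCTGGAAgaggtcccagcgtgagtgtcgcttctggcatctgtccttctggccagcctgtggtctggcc
RBP4: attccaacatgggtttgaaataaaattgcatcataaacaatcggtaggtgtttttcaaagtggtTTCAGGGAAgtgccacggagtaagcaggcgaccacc
PROS1: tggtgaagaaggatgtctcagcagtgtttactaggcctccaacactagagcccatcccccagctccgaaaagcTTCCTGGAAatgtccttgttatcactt
CFB: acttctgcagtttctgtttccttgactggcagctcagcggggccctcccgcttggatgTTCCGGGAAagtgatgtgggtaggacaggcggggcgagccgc
F10: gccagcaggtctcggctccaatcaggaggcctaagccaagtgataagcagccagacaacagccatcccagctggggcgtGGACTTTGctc

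Values are the authors' RMA intensities on the log2 scale. Of the hepatocyte markers examined, 6 had a row, and their control levels ranged from 7.60 to 12.96. The 13 markers of other cell types had control levels between 2.62 and 6.02 (median 3.70), with a summed linear intensity of 259 on both control arrays and 263 and 260 on the anti-miR-191 arrays of experiments 1 and 2. Within that range lay the control levels of 14 of the 40 tested members, for which expression over background cannot be claimed: FETUB, HP, HPX, CP, FGB, FGG, F7, F11, F12, ITIH1, ITIH4, C5, C1R and C1S. KNG1, F9, PLG and C9, with control means below the dim limit, were not tested. In bulk RNA a smaller share of cells and less transcript per cell cannot be told apart.

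**Figure D1:**
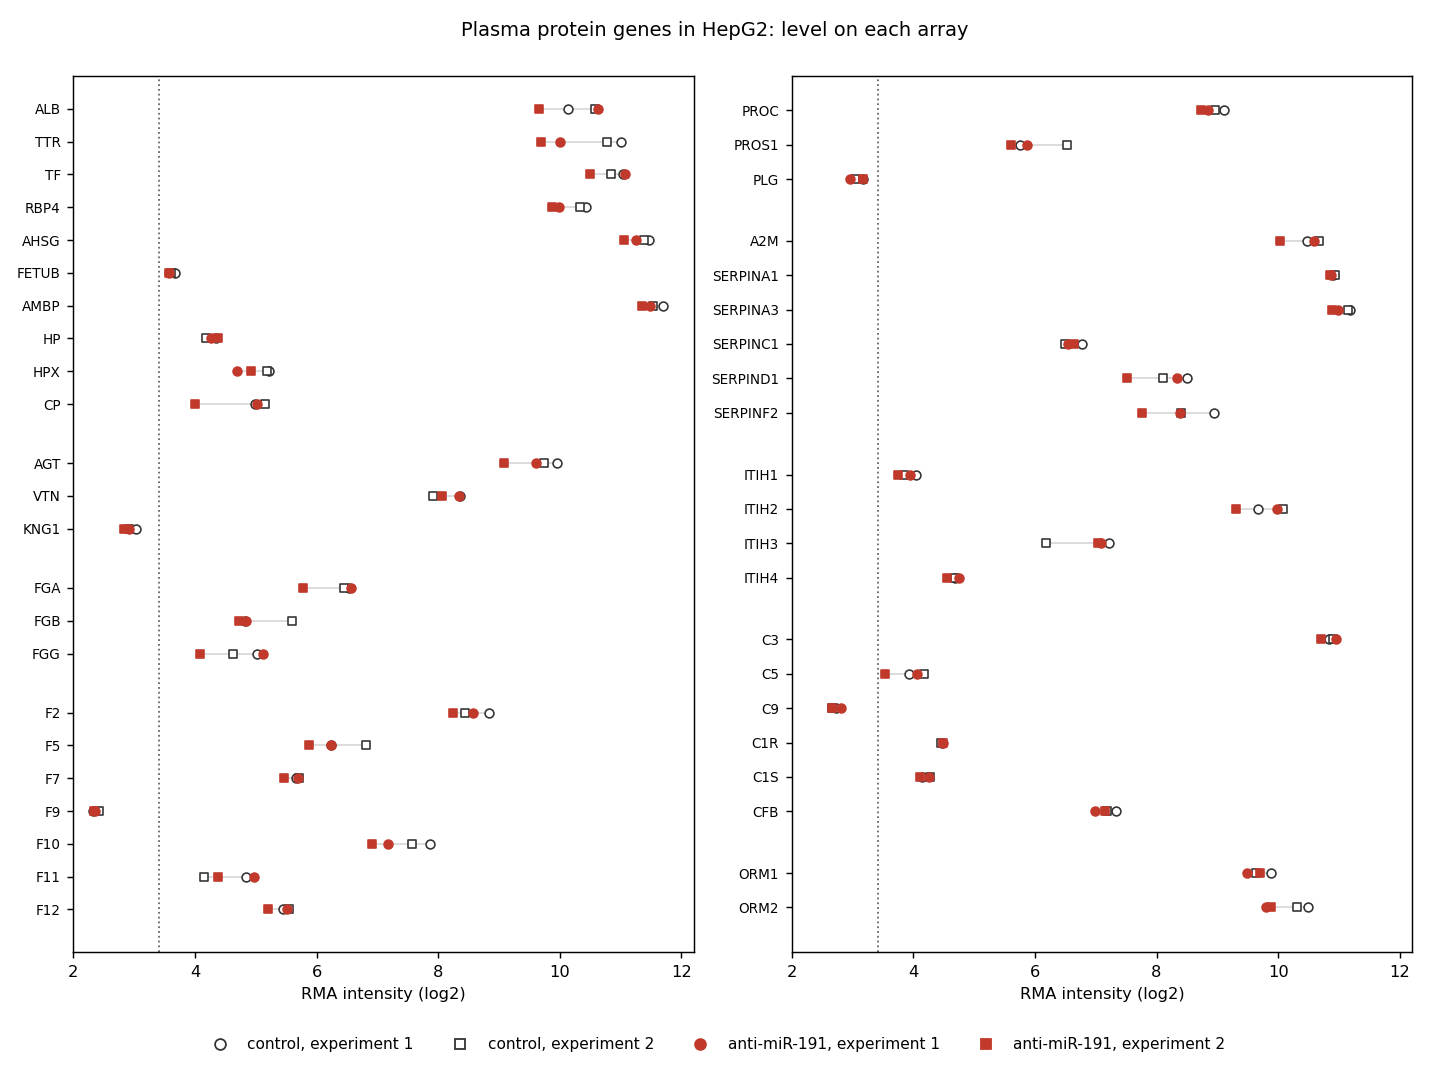
RMA intensity (log2, horizontal axis) of the 44 members with a row on each of the 4 arrays, ordered by role. Open symbols are controls, filled symbols anti-miR-191, circles experiment 1 and squares experiment 2, and the dotted line is the limit on dim rows (3.41). TTR, F10 and ORM2 show both filled symbols left of both open ones, whereas in CP and ITIH2 the filled square stands apart from the other symbols.

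After anti-miR-191, 4 plasma protein genes fell and 0 rose. The fallen genes were TTR (transthyretin, a thyroxine and retinol carrier), F10 (coagulation factor X), SERPINF2 (alpha-2-antiplasmin) and ORM2 (an acute phase orosomucoid). Such a call means an adjusted p below 0.05 from limma with each experiment's arrays compared with each other, here the paired fit. This made 10% of the 40 members lower, beside 3.77% of all 14147 genes tested, and 0 higher, beside 10.1% of all genes. Before adjustment, 7 of 40 members were lower and 0 higher at p below 0.05 in the paired limma fit. Of all 14147 genes, 1271 were lower and 2704 higher at that level. The unpaired fit, which compares the groups alone, called TTR as the only member, 1 of 40 (2.5%), beside 0.714% of all genes lower and 3.2% higher. When the arrays were rescaled by their medians, by quantiles or by cyclic loess, the paired fit called 3 members lower each time, the loss being ORM2, and 0 higher.

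The direction of change was counted without a test as well. Both anti-miR-191 arrays lay below both controls for 15 of 40 members, the 4 called genes included (37.5%), beside 23.8% of all genes. Those arrays lay above both controls for 1 member (C1R, with a mean change of 0.03), beside 29.4% of all genes. Changes were negative in both experiments for 18 members, again with the 4 called genes (45%), beside 33% of all genes, and positive in both for 2 (F11 and C1R), beside 36.5%. Over the 40 members the change had a median of -0.06 in experiment 1 and -0.29 in experiment 2, where the medians of all genes were 0.02 and 0.01. The anti-miR-191 array of experiment 2 held the lowest of the 4 levels for 30 of 40 members (75%), and for 27.7% of all genes.

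**Figure D2:**
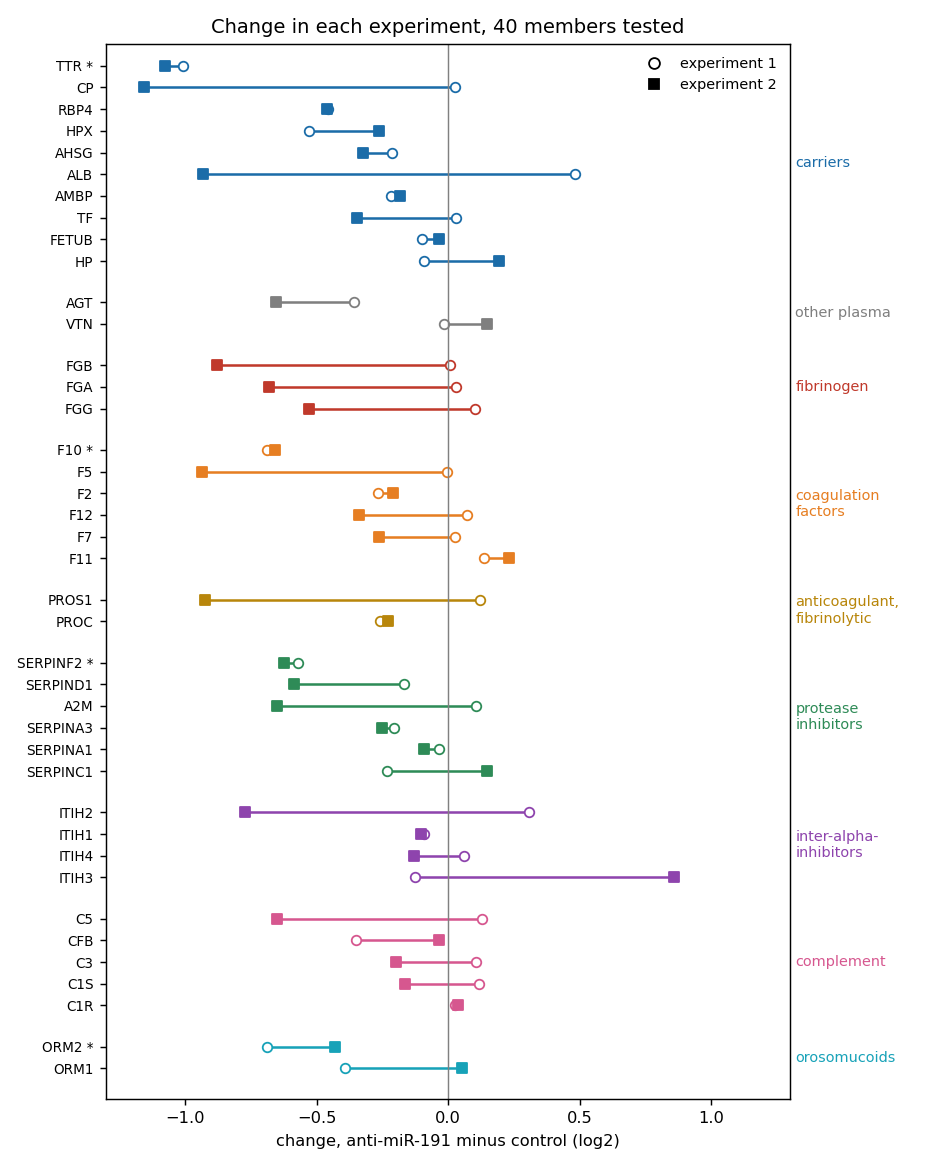
Change on the log2 scale (anti-miR-191 minus control, horizontal axis) of the 40 members tested in experiment 1 (open circles) and experiment 2 (filled squares), coloured by role, with a line joining both. Stars mark the 4 genes past the threshold in the paired fit; TTR, F10 and SERPINF2 have both symbols close together left of 0, while ALB, CP and ITIH2 have them far apart.

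Among the carriers, only TTR passed the test. TTR read 11.005 and 10.77 in the controls of experiments 1 and 2, and 10.00 and 9.70 after anti-miR-191. Both treated arrays were below both controls by more than the gap within either group. It fell 2.06-fold, by 1.01 in experiment 1 and 1.07 in experiment 2 (mean change -1.04 ± 0.14 SE, limma's adjusted p = 0.0057 in the paired and 0.038 in the unpaired fit).

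RBP4, the plasma carrier of retinol that circulates bound to transthyretin, read 10.43 and 10.33 in controls and 9.98 and 9.87 after anti-miR-191. The groups did not overlap and the changes in both experiments were alike (-0.46 and -0.46), but limma's adjusted p was 0.078. HPX, hemopexin, which binds free heme, read 5.22 and 5.18 in controls and 4.69 and 4.92 after treatment, again without overlap (change -0.40 ± 0.15 SE, limma's adjusted p = 0.135). AHSG (fetuin-A, an inhibitor of calcification) and AMBP (precursor of alpha-1-microglobulin and bikunin) had mean changes of -0.27 and -0.20, also without overlap of the groups and without passing the test.

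The other carriers differed between experiments or had changes near 0. ALB, the main osmotic and binding protein of plasma, read 10.14 and 10.58 in controls and 10.62 and 9.65 after anti-miR-191, so that its change was 0.48 in experiment 1 and -0.93 in experiment 2. The groups overlapped, and the mean change was -0.23 ± 0.29 SE (limma's adjusted p = 0.677). CP, the copper oxidase ceruloplasmin, read 4.99 and 5.16 in controls and 5.02 and 4.002 after treatment. Only the anti-miR-191 array of experiment 2 stood apart, and limma's adjusted p was 0.205. TF (transferrin, the iron carrier) had changes of 0.03 and -0.35. FETUB (fetuin-B) had changes of -0.10 and -0.04. HP, haptoglobin, which binds free hemoglobin, read 4.35 and 4.18 in controls and 4.26 and 4.37 after treatment. The groups overlapped, and its mean change of 0.05 ± 0.15 SE was the highest of the carriers (limma's adjusted p = 0.868). For the 10 carriers tested, 1 fell, 0 rose and 9 did not pass, and their medians were -0.16 and -0.33 in experiments 1 and 2.

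AGT, angiotensinogen, the substrate of renin, read 9.96 and 9.74 in controls and 9.60 and 9.08 after anti-miR-191. The groups did not overlap, with changes of -0.36 and -0.66 (mean -0.51 ± 0.15 SE), but limma's adjusted p was 0.070 in the paired and 0.237 in the unpaired fit. VTN, the adhesion protein vitronectin, read 8.36 and 7.91 in controls and 8.35 and 8.06 after treatment. The groups overlapped, and the mean change was 0.07 ± 0.15 SE (limma's adjusted p = 0.822). KNG1, the kininogen of the contact system, was dim on all 4 arrays, between 2.84 and 3.03.

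The 3 fibrinogen chain genes, which lie next to each other on chromosome 4 in the order FGB, FGA and FGG, were lower in experiment 2 and near 0 in experiment 1. FGA read 6.54 and 6.46 in controls and 6.57 and 5.77 after anti-miR-191. FGB read 4.83 and 5.59 in controls and 4.84 and 4.72 after treatment, and FGG read 5.02 and 4.62 against 5.13 and 4.09. The low array was the treated one of experiment 2 for FGA and FGG, whereas for FGB the control of experiment 2 was the high one. Changes lay between 0.01 and 0.10 in experiment 1 and were -0.68, -0.88 and -0.53 for FGA, FGB and FGG in experiment 2, and 0 of 3 passed. The mean changes of FGB and FGG, the lowest and the highest of the 3, were -0.43 ± 0.22 SE and -0.21 ± 0.18 SE (limma's adjusted p = 0.241 and 0.511).

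Among the clotting factors, F10 fell and the others did not pass. F10 encodes factor X, the zymogen of the protease that converts prothrombin. It read 7.86 and 7.58 in controls and 7.17 and 6.92 after anti-miR-191. Both treated arrays were below both controls, and the experiments gave changes of -0.69 and -0.66. The fall was 1.59-fold (mean -0.67 ± 0.14 SE, limma's adjusted p = 0.022 in the paired and 0.092 in the unpaired fit).

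F7, which encodes factor VII of the tissue factor pathway and is the neighbouring gene of F10 on chromosome 13, had changes of 0.03 and -0.26 (limma's adjusted p = 0.679). The difference between the neighbours was not tested. F2, prothrombin, read 8.84 and 8.45 in controls and 8.57 and 8.24 after treatment. The groups overlapped because both arrays of experiment 2 were lower, while the change was alike in both experiments (-0.26 and -0.21, mean -0.24 ± 0.14 SE, limma's adjusted p = 0.340). F5, the cofactor of activated factor X, read 6.24 and 6.81 in controls and 6.24 and 5.87 after treatment, a change of -0.0041 in experiment 1 and -0.94 in experiment 2 (limma's adjusted p = 0.218). F12, which starts the contact pathway, had changes of 0.07 and -0.34. F11, its substrate, read 4.83 and 4.15 in controls and 4.97 and 4.38 after treatment. Both arrays of experiment 2 were lower than those of experiment 1, and the change of 0.18 ± 0.14 SE was the highest of the clotting factors (limma's adjusted p = 0.471). Of 6 clotting factors tested, 1 fell and 0 rose, with medians of 0.01 and -0.30 in experiments 1 and 2. F9 read between 2.32 and 2.42 and was not tested.

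The protein C pathway and fibrinolysis were represented by PROC, PROS1 and PLG. PROC, the zymogen of the anticoagulant protease protein C, read 9.11 and 8.96 in controls and 8.85 and 8.74 after anti-miR-191. The groups did not overlap, and the change was -0.26 and -0.23 (mean -0.24 ± 0.14 SE, limma's adjusted p = 0.327). PROS1, the cofactor protein S, read 5.75 and 6.53 in controls and 5.87 and 5.60 after treatment. The control of experiment 2 was the high array, giving changes of 0.12 and -0.92 (mean -0.40 ± 0.24 SE, limma's adjusted p = 0.328). A further, dimmer row of PROS1 had changes of 0.05 and -1.11. PLG, plasminogen, read between 2.96 and 3.17 and was not tested. Of the 5 vitamin K dependent proteins tested (F2, F7, F10, PROC and PROS1), 1 fell and 0 rose.

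SERPINF2 was the protease inhibitor that fell. It encodes alpha-2-antiplasmin, the main inhibitor of plasmin, and read 8.95 and 8.39 in controls against 8.38 and 7.77 after anti-miR-191. Each group read lower in experiment 2 than in experiment 1, and the treated array of experiment 1 lay just under the control of experiment 2. Within each experiment the change was -0.57 and -0.63, a 1.51-fold fall (mean -0.60 ± 0.14 SE, limma's adjusted p = 0.033). Without the block it did not pass (limma's adjusted p = 0.274).

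The other serpins did not pass. SERPINA1, alpha-1-antitrypsin, which protects tissue from neutrophil elastase, read 10.90 and 10.94 in controls and 10.87 and 10.85 after treatment. The treated arrays were lower by 0.03 and 0.09 (mean change -0.06 ± 0.14 SE, limma's adjusted p = 0.822). SERPINA3, alpha-1-antichymotrypsin, had changes of -0.21 and -0.25, with no overlap of the groups and limma's adjusted p = 0.358. SERPIND1 (heparin cofactor II) had changes of -0.17 and -0.58. SERPINC1, antithrombin, read 6.77 and 6.50 in controls and 6.54 and 6.64 after treatment. Its groups overlapped, and its mean change of -0.04 ± 0.16 SE was the highest of the inhibitors (limma's adjusted p = 0.896). A2M, the broad protease trap alpha-2-macroglobulin, read 10.48 and 10.67 in controls and 10.58 and 10.02 after anti-miR-191, with the treated array of experiment 2 standing apart. Of 6 inhibitors tested 1 fell, 0 rose and 5 did not pass, and the medians were -0.19 and -0.42 in experiments 1 and 2.

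The inter-alpha-inhibitor heavy chains, which attach to hyaluronan, included genes with opposite changes in the experiments. ITIH2 read 9.67 and 10.07 in controls and 9.97 and 9.30 after anti-miR-191, changes of 0.31 and -0.77 (mean -0.23 ± 0.24 SE). ITIH3 read 7.22 and 6.18 in controls and 7.09 and 7.04 after treatment, changes of -0.13 and 0.86 (mean 0.37 ± 0.23 SE). In ITIH3 the control of experiment 2 was the single low array, and it was the only member with a change of at least 1.5-fold upward in experiment 2 (1 of 40, beside 12.5% of all genes). ITIH1 and ITIH4, neighbours of ITIH3 on chromosome 3, had mean changes of -0.10 and -0.03. None of the 4 passed (limma's adjusted p between 0.354 and 0.909), and the group's median change was -0.02 and -0.12.

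The complement genes tested showed no call. C3, on which all complement pathways converge, read 10.84 and 10.90 in controls and 10.94 and 10.71 after anti-miR-191, with overlapping groups and changes of 0.10 and -0.20 (mean -0.05 ± 0.15 SE, limma's adjusted p = 0.883). CFB, the protease of the alternative pathway, read 7.34 and 7.18 in controls and 6.99 and 7.15 after treatment. The treated arrays lay below the controls, by 0.04 in experiment 2 and 0.35 in experiment 1 (limma's adjusted p = 0.480). Its other 2 rows gave changes between -0.31 and -0.22. C5, the precursor of an anaphylatoxin and of the membrane attack complex, read 3.93 and 4.18 in controls and 4.06 and 3.53 after treatment. The treated array of experiment 2 was the low one (mean change -0.26 ± 0.20 SE, limma's adjusted p = 0.461). C1R and C1S are the neighbouring protease genes of the first complement component. C1R read 4.47 and 4.45 in controls and 4.49 and 4.48 after treatment, both treated arrays above both controls by small steps (mean change 0.03 ± 0.14 SE, limma's adjusted p = 0.919), and C1S had a mean change of -0.02. C9, the pore-forming component, read between 2.66 and 2.81 and was not tested. The medians of the 5 complement genes were 0.10 and -0.17 in experiments 1 and 2. For C5, C1R and C1S among them, expression over background cannot be claimed.

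The orosomucoid genes ORM1 and ORM2 lie side by side on chromosome 9 and encode closely similar lipocalins that bind drugs and lipids, so probes may be shared between them and their values are uncertain as separate readings. ORM2 read 10.50 and 10.31 in controls and 9.81 and 9.89 after anti-miR-191. Both treated arrays were below both controls, a 1.47-fold fall with changes of -0.69 and -0.43 (mean -0.56 ± 0.15 SE). It was just past the threshold (limma's adjusted p = 0.049) and lost its call without the block (adjusted p = 0.099) and under every scaling tried (adjusted p up to 0.076 over the paired alternatives). ORM1 read 9.88 and 9.64 in controls and 9.49 and 9.69 after treatment, with overlapping groups, changes of -0.39 and 0.05 and a mean change of -0.17 ± 0.16 SE (limma's adjusted p = 0.564).

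Grouped by inflammatory response instead of function, 1 of 16 positive acute phase genes (ORM2) and 1 of 5 negative acute phase genes (TTR) fell, and 0 of either rose. Medians were -0.01 and -0.18 in experiments 1 and 2 for the positive and -0.21 and -0.46 for the negative group. The groups differ in level, which limits their comparison. Expression over background cannot be claimed for HP, HPX, CP, FGB, FGG, ITIH4, C1R and C1S of the positive group. All genes of the negative group lay above that range. The positive group included FGA, FGB, FGG, SERPINA3, HP, C3, CFB and CP, whose values are given above. The negative group comprised ALB, TTR, TF, RBP4 and AHSG, all 5 of which were lower in experiment 2 and 3 of which were lower in experiment 1.

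**Figure D3:**
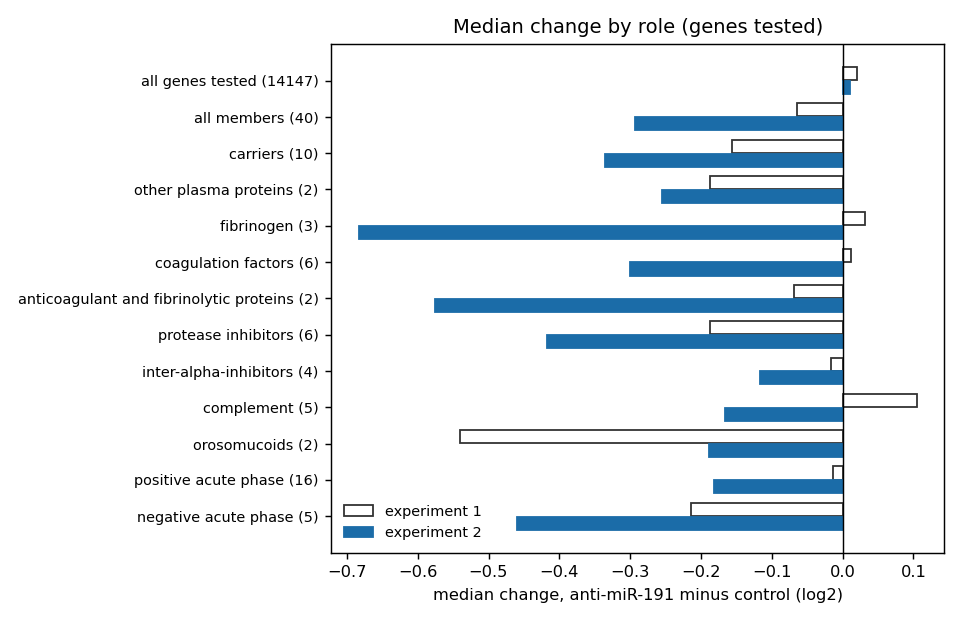
Median change on the log2 scale (anti-miR-191 minus control) of each role group and of both acute phase groups, for experiment 1 (open bars) and experiment 2 (filled bars), with all members and all genes tested for reference and the number of genes tested in brackets. Every group of plasma proteins has a negative bar in experiment 2, the longest for fibrinogen (-0.68), whereas in experiment 1 the bars of fibrinogen, the clotting factors and complement lie above 0. Members whose expression over background cannot be claimed enter every bar except those of other plasma, anticoagulant, protease inhibitor, orosomucoid and negative acute phase groups.

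The 2 experiments differed in how many members were lower. A level at least 1.5-fold lower after anti-miR-191 was seen for 3 of 40 members in experiment 1 (7.5%, beside 3.87% of all genes), namely TTR, F10 and ORM2. In experiment 2 it was seen for 13 of 40 (32.5%, beside 5.03% of all genes). Only TTR and F10 were lower by that much in both (5%, beside 2.22%). Of the 13, SERPINF2, TTR, F10 and AGT were also lower in experiment 1, with changes between -1.01 and -0.36. The other 9 (ALB, CP, FGA, FGB, F5, PROS1, A2M, ITIH2 and C5) had changes between -0.0041 and 0.48 in experiment 1. In all 13 the anti-miR-191 array of experiment 2 was the lowest of the 4 arrays, which choosing genes by a lower level in experiment 2 favours, and 63.4% of the 711 genes chosen that way over the whole table had the same array lowest. The control of experiment 2 was the highest array in 7 of the 13 (53.8%), beside 67.4% of those 711. Each experiment has 1 array per treatment, so the difference between the experiments has no replicate and was not tested. Restricting the count to the 26 members with control levels above those of other cell types' markers left 10 of 26 lower by at least 1.5-fold in experiment 2 and 3 of 26 in experiment 1. The share of all genes at such levels was not computed, so these restricted counts have no background beside them.

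Across the 40 members the changes of experiment 1 and experiment 2 were unrelated in rank (Spearman rho = -0.11, Pearson r = 0.00934), while over all 14147 genes tested they went together (rho = 0.578, r = 0.678). These are descriptions across genes, which share the same 4 arrays and are not independent replicates. Of the 6 hepatocyte markers, which are not on the list, 2 were lower in experiment 1 (APOA1 and APOA2) and 5 in experiment 2, all but FOXA2. Over all genes tested, 47.6% were lower in experiment 1 and 48.9% in experiment 2. AFP, alpha-fetoprotein, had changes of 0.16 and -1.24, and APOB, the protein of very low density lipoprotein, 0.02 and -1.09 (limma's adjusted p = 0.285 and 0.211). The summed linear intensity of the 6 markers was 14623 and 14970 on the control arrays of experiments 1 and 2, and 12762 and 11092 on the anti-miR-191 arrays. The part that the level of such markers has in the members' changes was not tested.

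**Figure D4:**
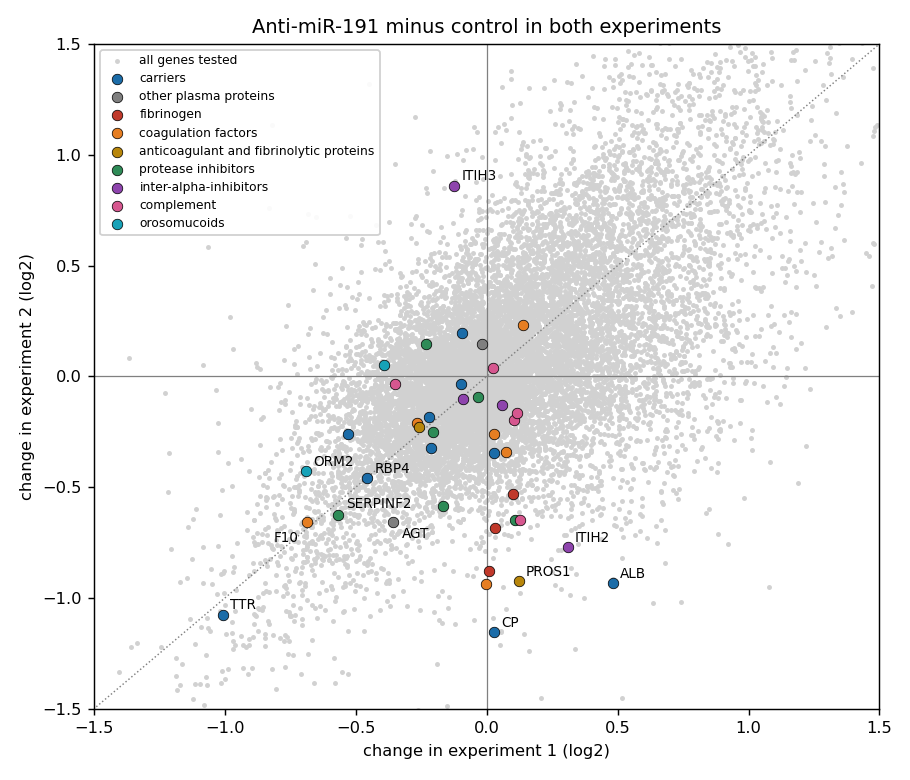
Change on the log2 scale in experiment 1 (horizontal) against experiment 2 (vertical) for all genes tested (grey) and for the 40 members (coloured by role); the dotted line marks equal changes, and 255 genes with a change beyond 1.5 in size lie outside the plot. TTR, F10, SERPINF2 and RBP4 lie close to the line, whereas ALB, CP, ITIH2 and PROS1 lie below it and ITIH3 far above.

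Members with the HNF1 letters in a promoter window included ALB, FGA, FGB, F2, PROC and SERPINA1. The 8 tested had medians of 0.02 and -0.44 in experiments 1 and 2, and 0 of them fell. The 22 other members with a window had medians of -0.11 and -0.26, and 1 fell. The 10 tested members with the STAT motif, among them AGT, RBP4, PROS1, CFB and F10, had medians of -0.09 and -0.52, with 1 fall (F10), and the 20 without it had medians of -0.06 and -0.26, with 0 falls. TTR, SERPINF2 and ORM2 had no window in the table. The 1 fall in either split was F10, and over all genes tested 3.77% fell in the paired fit. With 1 such gene, these counts do not set the groups apart. Changes of all genes with or without the motifs were not computed, so the medians have no background beside them. These medians are descriptions, and no test was made of the motif.

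Related genes outside the list were counted in the same way. These 45 genes included other complement components and regulators, clotting and hormone-binding proteins, and genes of carboxylation and secretion. CD46, CD55, CD59 and F3 were among them. Of the 45, 29 were tested, 2 fell (6.9%, beside 3.77% of all genes) and 0 rose (beside 10.1%). Their medians were -0.04 and -0.20 in experiments 1 and 2. The fallen genes were SERPINA6, which encodes the cortisol carrier transcortin, and VKORC1, the vitamin K reductase that the vitamin K dependent clotting factors need. SERPINA6 read 8.34 and 7.70 in controls and 7.39 and 6.94 after anti-miR-191, without overlap (mean -0.85 ± 0.15 SE, limma's adjusted p = 0.011). VKORC1 read 10.54 and 10.30 in controls and 10.02 and 9.68 after treatment, also without overlap (mean change -0.57 ± 0.14 SE, limma's adjusted p = 0.039). Neither passed without the block (limma's adjusted p = 0.131 and 0.146), and VKORC1 did not pass after quantile normalization (adjusted p = 0.069).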

How the data were processed

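RNA from 4 HepG2 cultures was hybridised to 1-colour Affymetrix arrays. The authors deposited log2 intensity values; the submitters' processing notes name RMA and Affymetrix Expression Console. Their versions, and whether all arrays were normalized jointly, were not stated, and the log base rests on RMA's convention and the value range. Array medians were 4.37 to 4.43, and interquartile ranges 3.18 to 3.24 in controls and 3.38 to 3.43 after anti-miR-191. Of 33297 rows, 19460 had 1 gene symbol in GEO's platform annotation of 2016.

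The 33.3% of rows with the lowest mean were left out. limma 3.58.1 in R 4.3.3 (lmFit, eBayes, two-sided, Benjamini-Hochberg over 14147 genes) was fitted with the experiment as a block (1 residual degree of freedom plus 6.60 prior) and without it (2 plus 4.32). The pairing comes from the series text and the numbered titles, and deviations of same-numbered arrays correlated at 0.335. The fits were tested on simulated data. RMA values hold no counting depth, and the number of arrays limits precision. The members, lists, roles and tests were chosen with earlier results of these data known. Named in full are called members, ALB, TTR, F2, SERPINA1, C3 and the extremes of each role. Other members given by array, AFP, APOB and the 1.5-fold counts were chosen after their values were seen, as were the motifs and printed promoters.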

Additional observations from a re-analysis of the deposited data

How the results depend on the processing

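TTR, F10 and SERPINF2 kept their call in the paired fit under all 7 alternatives of dim limit, scaling, moderation and row choice (adjusted p up to 0.016, 0.028 and 0.038), and ORM2 under 2 of 7. The count of 4 members lower was 1 with no replicate block and 1 at an adjusted p under 0.01. In the fit without the block, leaving out any single array gave 0 members lower, against 1 with all arrays. The change of TTR was then -1.19 to -0.89 (adjusted p 0.059 to 0.215), but with 1 residual degree of freedom and a lone array in a group, assumed to vary like the other group, the lost call says little. With the block, leaving out an array leaves no residual degree of freedom. The members' median of -0.23 was between -0.29 and -0.064 in single experiments. Fibrinogen had medians of 0.03 and -0.68 in experiments 1 and 2, the clotting factors 0.01 and -0.30, and complement 0.10 and -0.17. The other role and acute phase groups had negative medians in both experiments. Protease inhibitors had -0.19 and -0.42, positive acute phase genes -0.013 and -0.18, and negative acute phase genes -0.21 and -0.46. A spread taken from the same 2 experiments cannot judge these medians. With no limit on dim rows, the median of the other plasma proteins was -0.10, against -0.22 with it. The vitamin K dependent genes, whose experiments were nearly equal, ranged from -0.28 to -0.24, and all genes from -0.024 to 0.037. Single genes were followed through the alternatives only if they were called, lead or extreme members, and the other members were not examined. Among those followed that did not pass, quantile normalization turned the sign of SERPINA1 (0.0061) and C3 (0.041). In the fit without the block, leaving out 1 array turned the sign of ALB (-0.71 to 0.26), C3 (-0.16 to 0.073) and HP (-0.036 to 0.14). It also turned VTN (-0.16 to 0.29), FGG (-0.73 to 0.30), F11 (-0.16 to 0.53) and SERPINC1 (-0.18 to 0.095). ITIH2 (-0.57 to 0.10), ITIH3 (-0.15 to 0.88) and C5 (-0.53 to 0.0034) turned as well. Leaving out an array in that fit mixes the difference between the experiments into the change. F11 alone among these genes had the same sign in both experiments (0.14 and 0.23). The causes were not tested. Over all genes, 27.2% of calls were lower, and 36.9% after quantile normalization.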

Other observations

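The 40 members differ in the length of their genes, a property the list did not use. Across them the span of the gene in RefSeq (GRCh38.p14) went with the change in experiment 2 minus that in experiment 1 (Spearman rho = -0.479, n = 40). Across all 14136 genes with a span, rho was -0.159. TF, C5, PROS1, F5, CP, A2M and ITIH2, the 7 longest with spans between 46.2 and 135 kb, had changes of -0.0041 to 0.31 in experiment 1 and -1.15 to -0.35 in experiment 2. The 20 longer and 20 shorter genes had nearly equal medians in experiment 2 (-0.30 and -0.29) and differed in experiment 1 (0.03 and -0.21). ALB, FGA and FGB, with spans of 17.2, 7.62 and 9.83 kb, had the same contrast as the 7 longest. AGT, the next longest after those 7 with 43.1 kb, did not (-0.36 and -0.66 in experiments 1 and 2). Nor did F10 with 26.7 kb (-0.69 and -0.66) or F11 with 24.5 kb (0.14 and 0.23). This relation was looked for after the values were seen, the genes share the same 4 arrays, and its origin was not tested.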
